A study of Mus musculus with 26 samples.

Results

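The 8 genes described here encode enzymes and regulators of glycogen synthesis and breakdown in liver: Gys2, Ugp2, Gbe1, Ppp1r3b, Ppp1r3c, Ppp1r3g, Pygl and Phka2. They were chosen by name as a pathway, out of 36883 gene names in the deposited count table. Each stood on a line of its own in that table, and all 8 were among the 16892 genes that passed a filter on low counts and were tested. RNA was taken from livers of Eu-MYC mice, whose MYC transgene is under the immunoglobulin heavy chain enhancer and so acts in B-lineage cells, from which lymphomas can arise. All 26 mice carried it, and no mice without it were analysed here. One arm was housed for 8 weeks under chronic jet lag lighting (8 females and 4 males), the other under a cycle of 12 hours of light and 12 hours of dark, called 12:12 below (8 females and 6 males). Each library is labelled with a sex and an animal number, so each stands for 1 mouse, and p-values measure the spread between mice of this experiment. The sources used here do not give the shift schedule, the animals' age and health, or the hour of sampling.

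Liver stores glucose as glycogen after meals and returns it to the blood between them. UDP-glucose pyrophosphorylase (Ugp2) makes the activated glucose, liver glycogen synthase (Gys2) adds it to a growing chain, and the branching enzyme (Gbe1) places the branch points. Liver glycogen phosphorylase (Pygl) removes glucose from chain ends once phosphorylase kinase, whose liver regulatory alpha subunit is Phka2, has phosphorylated it. The PPP1R3 proteins bring protein phosphatase 1 to the glycogen particle, where it activates the synthase and inactivates the phosphorylase. Glycogen content, fasting and feeding, and the circadian clock are all known to bear on the pathway in rodent liver.

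Of the 6 members with a RefSeq promoter entry (GRCm38.p6, the same assembly as mm10), that of Ppp1r3c is shown because it is the 1 entry that belongs to a gene that changed with lighting, and because it was the only one of the 6 to hold the E-box CACGTG, the site that CLOCK and BMAL1 are known to bind. RefSeq and GENCODE place the start of Ppp1r3c differently, at 36736604 and 36736653 on chromosome 19, and the stretch shown is the part of the entry that lies before both, chr19:36736654-36736854, read on the minus strand. The E-box, in capitals, begins 104 bases before the RefSeq start and 55 bases before the GENCODE start.
Ppp1r3c: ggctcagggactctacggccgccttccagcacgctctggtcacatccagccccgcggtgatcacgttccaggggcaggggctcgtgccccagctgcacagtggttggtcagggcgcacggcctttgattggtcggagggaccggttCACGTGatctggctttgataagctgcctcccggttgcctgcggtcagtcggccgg
CACGTG reads the same on both strands and was found in 6.02% of the 32851 RefSeq promoter entries, searched up to their RefSeq start. The D-box TTATGTAA, searched on both strands, was in 0.819% of entries and in none of the 6 members. The nuclear receptor half-site AGGTCA was in 14.0% of entries on either strand, and among the members in that of Pygl, whose RefSeq start lies inside the GENCODE span of the gene. These are matches of letters and say nothing of binding in these livers.

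Library totals were 45364557 to 50242019 counts. Levels are given as CPM, a gene's count scaled to a common library total, and a count of 0 allows a level of up to 3 counts, at most 0.0661 CPM in any library. All 10 hepatocyte markers were detected, and albumin (Alb) took up to 22.1% of the counts. In 8 libraries the B cell receptor gene Cd79a stood at 14.5 to 144 CPM, while the other 18 lay between 1.28 and 2.95 CPM. The 8 libraries were female 12:12 libraries 6 and 7, female jet lag libraries 2, 5 and 6, male 12:12 libraries 3 and 5, and male jet lag library 8. They are called Cd79a-high below, with 8 CPM as the limit. Results are given with them, and for some genes and comparisons also without them.

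Gys2 (chromosome 6, 142422613 to 142473109, minus strand), the synthase itself, fell under jet lag. In females it ran from 122 CPM through a median of 310 to 513 under 12:12, and from 102 through 151 to 262 under jet lag. In males it ran from 210 through 410 to 508 CPM under 12:12, and the 4 jet lag libraries stood at 193, 172, 152 and 239.9 CPM. All 12 jet lag libraries lay below the 12:12 median of their sex, but the groups overlapped in both sexes, through female 12:12 library 6 and male 12:12 library 3 at the low end. Over both sexes the log2 fold change of jet lag over 12:12 was -1.09 (SE 0.19, 95% interval -1.47 to -0.71), a level 0.471 times that under 12:12, with an adjusted p of 0.00477 from edgeR's quasi-likelihood test. It had the 23rd smallest p of all genes. Without the Cd79a-high libraries the change was -1.17 (SE 0.15, adjusted p = 0.000481), and leaving out each library in turn gave -1.18 to -1.01, with an adjusted p of 0.0136 at most.

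The summed hepatocyte markers had medians of 184087 CPM under 12:12 and 180842 CPM under jet lag in females, and of 166015 and 156553 CPM in males.

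Both libraries at the low end of the 12:12 groups were Cd79a-high. Among the other 18 libraries the 10 under 12:12 ran from 262 to 513 CPM and the 8 under jet lag from 103 to 262 CPM, so that the groups did not overlap but touched. Of all genes tested, 0.0592% were lower and 0.201% higher under jet lag with no overlap in these 18 libraries. Within the sexes Gys2 did not overlap in them either, as held for 0.326% of genes in females and 3.99% in males on the lower side. With all 26 libraries 0 of the 8 members had groups without overlap in either sex, where 0.0355% of all genes were lower and 0.136% higher in this way in females, and 0.622% and 0.574% in males.

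**Figure D1:**
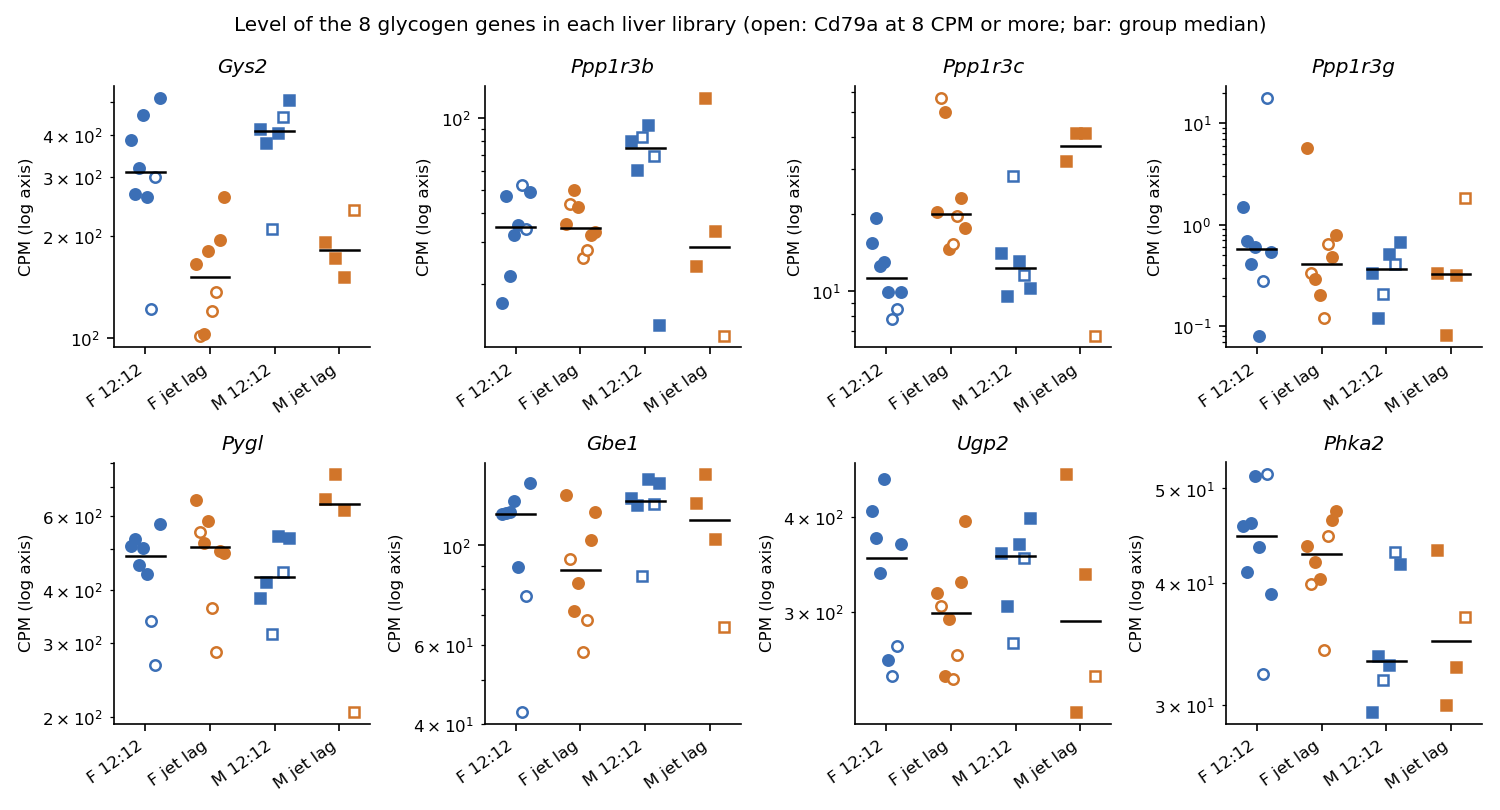
CPM of each of the 8 genes (log axis, 1 panel per gene) in each library, with females as circles and males as squares, 12:12 in blue and jet lag in orange, open symbols for Cd79a-high libraries and a bar at the group median. In Gys2 all 12 jet lag libraries lie below the 12:12 median of their sex, and in Ppp1r3c 11 of 12 lie above it.

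Ppp1r3c (chromosome 19, 36731731 to 36736653, minus strand), the phosphatase-targeting subunit also called PTG, rose under jet lag. In females it ran from 7.76 through a median of 11.3 to 19.4 CPM under 12:12, and from 14.6 through 20.0 to 56.7 CPM under jet lag. In males it ran from 9.58 through 12.4 to 28.2 CPM under 12:12, and the jet lag libraries stood at 32.1, 41.5, 41.4 and 6.71 CPM. In 11 of 12 jet lag libraries it exceeded the median of the 12:12 libraries of that sex. The exception, male jet lag library 8, was the lowest of all 26, and male 12:12 library 3 stood above every other 12:12 library. The log2 fold change was 1.13 (SE 0.27, 95% interval 0.59 to 1.67), a level 2.19 times that under 12:12, with an adjusted p of 0.0473 from edgeR.

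The call on Ppp1r3c was close to the threshold. Leaving out 1 library kept the fold change between 1.00 and 1.25 but lost the call for 18 of the 26 libraries, with an adjusted p of up to 0.115 without male jet lag library 6. It was kept without female 12:12 library 2, without female jet lag library 1, 4, 5, 6 or 8, without male 12:12 library 3, and without male jet lag library 8, where the adjusted p was 0.00467. Without the Cd79a-high libraries the change was 1.18 (SE 0.23, adjusted p = 0.00831). Ppp1r3c then had no overlap between the lightings in males, as held on the higher side for 5.9% of all genes, and the groups overlapped in females, where 1.14% of all genes were higher without overlap. Skeletal muscle and fat also express Ppp1r3c. The summed muscle markers had medians of 0.783 CPM under 12:12 and 3.51 CPM under jet lag in females, and of 0.442 and 0.812 CPM in males, where Myh1 and Pvalb were at 0. The summed adipocyte markers had medians of 8.24 and 9.99 CPM in females and 8.23 and 9.18 CPM in males, with Lep at 0. The part of these tissues in the level of Ppp1r3c was not tested.

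Of the 8 members 1 rose, 1 fell and 6 did not pass the test, where 0.781% of all genes tested were called (0.444% higher and 0.337% lower). The median log2 change was -0.17 over the members and 0.02 over all genes tested. In the authors' deposited table, whose fold changes are 12:12 over jet lag, Gys2 stood at 1.12 (SE 0.20, adjusted p 3.06e-05) and Ppp1r3c at -1.10 (SE 0.27, adjusted p 0.00901), and the adjusted p of each of the other 6 was at least 0.869. That table was made by DESeq2 from the same libraries.

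The other targeting subunits did not pass the test. Ppp1r3b (chromosome 8, 35375739 to 35388139, plus strand), whose protein GL is the main such subunit of liver, had medians of 34.9 CPM under 12:12 and 34.5 under jet lag in females. In males the median was 74.8 CPM under 12:12, with male 12:12 library 6 at 13.5, and the jet lag libraries stood at 23.8, 121.6, 33.5 and 12.2 CPM. The male jet lag libraries thus held both the highest and the lowest value of the 26. The log2 fold change over both sexes was -0.15 (SE 0.30, adjusted p = 0.999 from edgeR), with a 95% interval of -0.73 to 0.43, and it was 0.078 without the Cd79a-high libraries.

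Ppp1r3g (chromosome 13, 35958839 to 35970388, plus strand) encodes a targeting subunit known in mouse liver to vary between fasting and feeding. It was the least abundant member, with a median of 0.406 CPM over all libraries. Female 12:12 library 7 stood at 17.8 CPM, against 0.0808 to 1.498 in the rest of its group, and female jet lag library 1 stood at 5.72 CPM, against 0.121 to 0.796. The log2 fold change was -0.54 (SE 0.74, 95% interval -2.003 to 0.92, adjusted p = 0.999 from edgeR), and it was 0.55 without the Cd79a-high libraries, among them female library 7. Gm30127, annotated on the opposite strand across part of Ppp1r3g, averaged 0.0252 CPM.

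The remaining enzymes of synthesis, Ugp2 and Gbe1, lay lower under jet lag in most libraries without passing the test. Ugp2 (chromosome 11, 21321138 to 21371201, minus strand) had medians of 352 CPM under 12:12 and 299.6 under jet lag in females. In males it had a median of 355 CPM under 12:12, and the jet lag libraries stood at 454, 222, 336 and 247 CPM. In 10 of 12 jet lag libraries Ugp2 was lower than the 12:12 median for that sex, with a log2 fold change of -0.18 (SE 0.13, 95% interval -0.44 to 0.08, adjusted p = 0.919 from edgeR).

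Gbe1 (chromosome 16, 70313949 to 70569716, plus strand) ran from 42.4 through a median of 118 to 138 CPM in females under 12:12, and from 57.8 through 88.0 to 129.6 CPM under jet lag. In males the 12:12 libraries ran from 85.3 through 126 to 140.4 CPM, and the jet lag libraries stood at 124, 144, 103 and 65.8 CPM. The groups overlapped over most of their range, and 9 of 12 jet lag libraries lay below the 12:12 median of their sex. The log2 fold change was -0.20 (SE 0.18, 95% interval -0.55 to 0.15, adjusted p = 0.979 from edgeR).

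The enzymes of breakdown did not pass the test either. Pygl (chromosome 12, 70190811 to 70231488, minus strand) ran from 265 through a median of 481 to 573 CPM in females under 12:12, and from 285 through 506 to 654 CPM under jet lag. In males it ran from 315 through 429.8 to 537 CPM under 12:12, and the jet lag libraries stood at 656, 751, 620.0 and 206 CPM. The first 3 of these lay above every male 12:12 library and male jet lag library 8, which was Cd79a-high, lay below all of them. The log2 fold change over both sexes was 0.20 (SE 0.19, 95% interval -0.16 to 0.56, adjusted p = 0.991 from edgeR). In males it was 0.40 (SE 0.30, adjusted p = 0.653), and without the Cd79a-high libraries 0.53 (SE 0.14, adjusted p = 0.0541), with 4 libraries against 3. Pygl was then above all male 12:12 libraries in all 3, which held for 5.9% of all genes tested.

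Phka2 (chromosome X, 160502166 to 160598878, plus strand) was the steadiest member, between 29.5 and 51.7 CPM in all libraries. Its group medians were 44.7 CPM under 12:12 and 42.8 under jet lag in females, and 33.3 and 34.9 in males. The log2 fold change was -0.05 (SE 0.08), with the narrowest 95% interval of the members, -0.21 to 0.12 (adjusted p = 0.999 from edgeR).

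**Figure D2:**
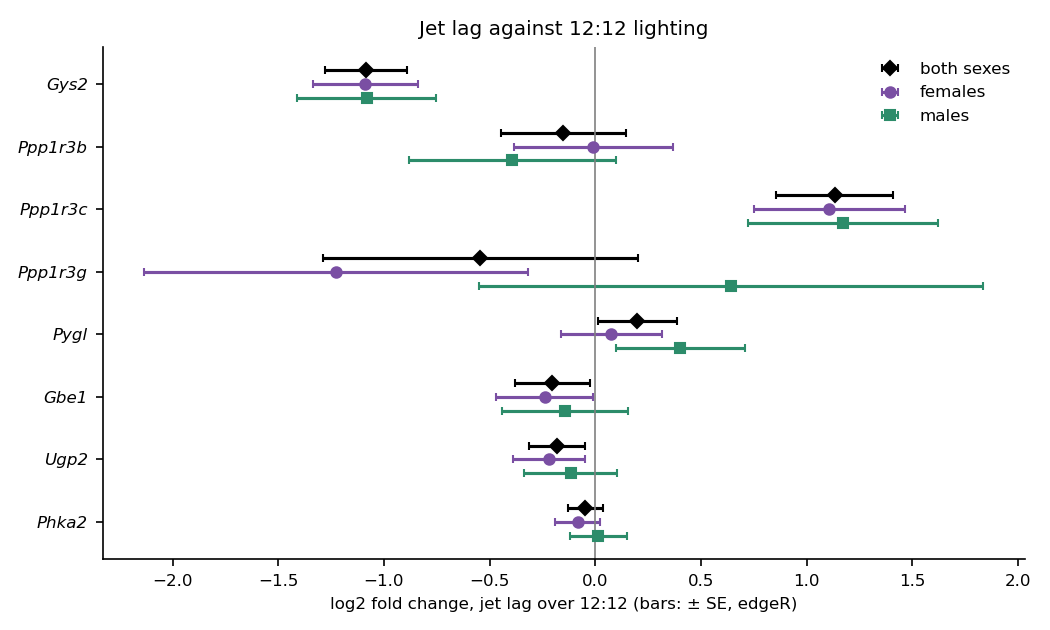
Log2 fold change of jet lag over 12:12 for each of the 8 genes (x axis), over both sexes, in females and in males, with bars of 1 SE from edgeR. Gys2 lies near -1.09 and Ppp1r3c between 1.11 and 1.17 in all 3 fits, and Ppp1r3g has the widest bars.

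Within each sex the point estimates of Gys2 and Ppp1r3c were close to those over both sexes, but neither passed the test in either sex alone. In females Gys2 changed by -1.09 (SE 0.25, adjusted p = 0.158) and Ppp1r3c by 1.11 (SE 0.36, adjusted p = 0.566), in a comparison in which 0% of all genes tested were called by edgeR. In that comparison 772 genes had an unadjusted p under 0.05, among them 2 members, and limma-voom called 0 genes and DESeq2 55, among them 1 member, Gys2. In males Gys2 changed by -1.08 (SE 0.33, adjusted p = 0.271) and Ppp1r3c by 1.17 (SE 0.45, adjusted p = 0.419), where edgeR called 0.0118% of all genes. Without the Cd79a-high libraries Gys2 passed in females (-1.07, SE 0.20, adjusted p = 0.0374) and in males (-1.32, SE 0.25, adjusted p = 0.0111). Ppp1r3c then passed in males (1.71, SE 0.34, adjusted p = 0.0158), while in females it was 0.84 (SE 0.27, adjusted p = 0.392). With all libraries the adjusted p of each of the other 6 members was at least 0.653 in either sex.

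A test of whether the sexes differed in their change with lighting called 0 of the 8 members and 0% of all genes with edgeR. For Gys2 the female change less the male change was -0.01 (SE 0.40, 95% interval -0.79 to 0.78), and for Ppp1r3c -0.07 (SE 0.58, 95% interval -1.20 to 1.07). The adjusted p of the 8 members ran from 0.814 to 0.999. Of all genes 902 had an unadjusted p under 0.05, 0 of them members, while neither DESeq2 nor limma-voom made a call.

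Of 25 further genes of glycogen handling 22 were tested and 0 passed in edgeR, DESeq2 or limma-voom, with 4 at an unadjusted p under 0.05 in edgeR and a median log2 change of -0.02 under jet lag. Of all 16892 genes, fewer than 1401 had an unadjusted p under 0.05 in the same comparison. Phkg1, Ppp1r3a and Ppp1r3d did not pass the filter, with no library above 0.296 CPM. Among those with the smallest p were Pgm2l1, a glucose 1,6-bisphosphate synthase gene, at -0.41 (adjusted p = 0.329), Ppp1ca, a catalytic subunit of protein phosphatase 1, at 0.22 (adjusted p = 0.409), and Stbd1, whose protein binds glycogen, at -0.47 (adjusted p = 0.469). These adjusted p-values are from edgeR.

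Of 5 genes that handle glucose and glucose 6-phosphate on either side of the pathway, 0 passed the test for lighting in edgeR or limma-voom and 1 passed in DESeq2, with 2 at an unadjusted p under 0.05 in edgeR. G6pc, the catalytic subunit of glucose-6-phosphatase, had a log2 fold change of 1.06 (SE 0.32, adjusted p = 0.159 from edgeR), with medians of 26.1 CPM under 12:12 and 60.4 CPM under jet lag in females, and of 73.3 and 91.7 CPM in males. Slc37a4, the glucose 6-phosphate transporter into the endoplasmic reticulum, stood at -0.38 (adjusted p = 0.137). Slc2a2, the glucose transporter of hepatocytes, stood at -0.36 (adjusted p = 0.633). Its unadjusted p in edgeR, 0.0525, had rank 1401 among the 16892 genes, so fewer genes than that lay under 0.05.

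Between the sexes 0 of the 8 members passed the test, where edgeR called 9.13% of all genes (4.67% higher and 4.46% lower in females). Before adjustment 3 members had a p under 0.05 in edgeR, and after it 1 passed in DESeq2 and 0 in limma-voom. The largest of these 3 unadjusted p-values, 0.0463 for Ppp1r3g, had rank 3638 among the 16892 genes. At least that many of all genes thus had an unadjusted p under 0.05. Ppp1r3b came nearest, with a log2 fold change of females over males of -0.85 (SE 0.30, 95% interval -1.43 to -0.26, adjusted p = 0.0769). It passed in DESeq2 (adjusted p = 0.0327), and in edgeR without male 12:12 library 6 (adjusted p = 0.0317) or without male jet lag library 5 (adjusted p = 0.0462) or 8 (adjusted p = 0.0151). Gbe1 was at -0.40 (SE 0.18, adjusted p = 0.18) and at -0.36 (SE 0.11, adjusted p = 0.021) without the Cd79a-high libraries. Gys2 was at -0.39 (SE 0.19, adjusted p = 0.233). Ppp1r3g was at 1.69 (SE 0.80, adjusted p = 0.215), and at 0.62 without female 12:12 library 7. Phka2 was at 0.15 (SE 0.09, adjusted p = 0.32). Ppp1r3c was at -0.37 (adjusted p = 0.468), Pygl at -0.21 (adjusted p = 0.57) and Ugp2 at -0.18 (adjusted p = 0.477).

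Among the glucose and glucose 6-phosphate genes, G6pc was lower in females by edgeR, at -1.07 (SE 0.33, adjusted p = 0.0373). Of the 22 other glycogen genes 1 differed, Epm2a, the gene of the glycogen phosphatase laforin, which was higher in females by 0.59 (SE 0.19, adjusted p = 0.0492). Limma-voom called 0 of these 22.

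Divided by the length of the annotated exons, an approximate way to set levels of different genes side by side, the order of the members differed between the lightings. The lengths merge the exons of all annotated transcripts, 6.895 kilobases for Pygl and 2.657 for Gys2, and may exceed the RNA that was counted. By CPM alone the median Gys2 to Pygl ratio was 0.826 under 12:12, so the lead of Gys2 over Pygl below rests on these lengths. Under 12:12 Gys2 led with 134 ± 43.2 CPM per kilobase (SD, n = 14), followed by Ugp2 with 111 ± 19.8 and Pygl with 64.6 ± 13.5. Under jet lag Ugp2 led with 99.3 ± 22.2 CPM per kilobase (SD, n = 12), followed by Pygl with 74.5 ± 23.3 and Gys2 with 63.4 ± 18.9. Gys2 was above Ugp2 in 11 of 14 libraries under 12:12 and in 1 of 12 under jet lag, and above Pygl in 13 of 14 and 4 of 12. The ranges of neighbours in each order overlapped, except at the step down from these 3 to Gbe1, at 20.9 ± 5.25 and 18.1 ± 5.29 CPM per kilobase.

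The targeting subunits changed places as well. Under 12:12 Ppp1r3b averaged 7.91 and Ppp1r3c 4.81 CPM per kilobase, with Ppp1r3c above Ppp1r3b in 3 of 14 libraries. Under jet lag they averaged 6.46 and 10.4 CPM per kilobase, with Ppp1r3c above Ppp1r3b in 10 of 12. Phka2 lay among them, at 6.64 and 6.62, and Ppp1r3g was the lowest by mean level under both lightings, at 0.642 and 0.345 CPM per kilobase. These averages follow from the lighting changes given above and were not tested again.

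Within a library, the CPM of Gys2 divided by that of Pygl sets the gene of synthesis against that of breakdown, free of any scaling between libraries. The ratio ran from 0.362 through a median of 0.826 to 1.13 under 12:12 and from 0.186 through 0.302 to 1.17 under jet lag. The highest ratio under jet lag belonged to male jet lag library 8, in which Pygl was at its lowest. Without it the highest was 0.535, and the lightings still overlapped, through female 12:12 libraries 2 and 6 at 0.506 and 0.362.

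**Figure D3:**
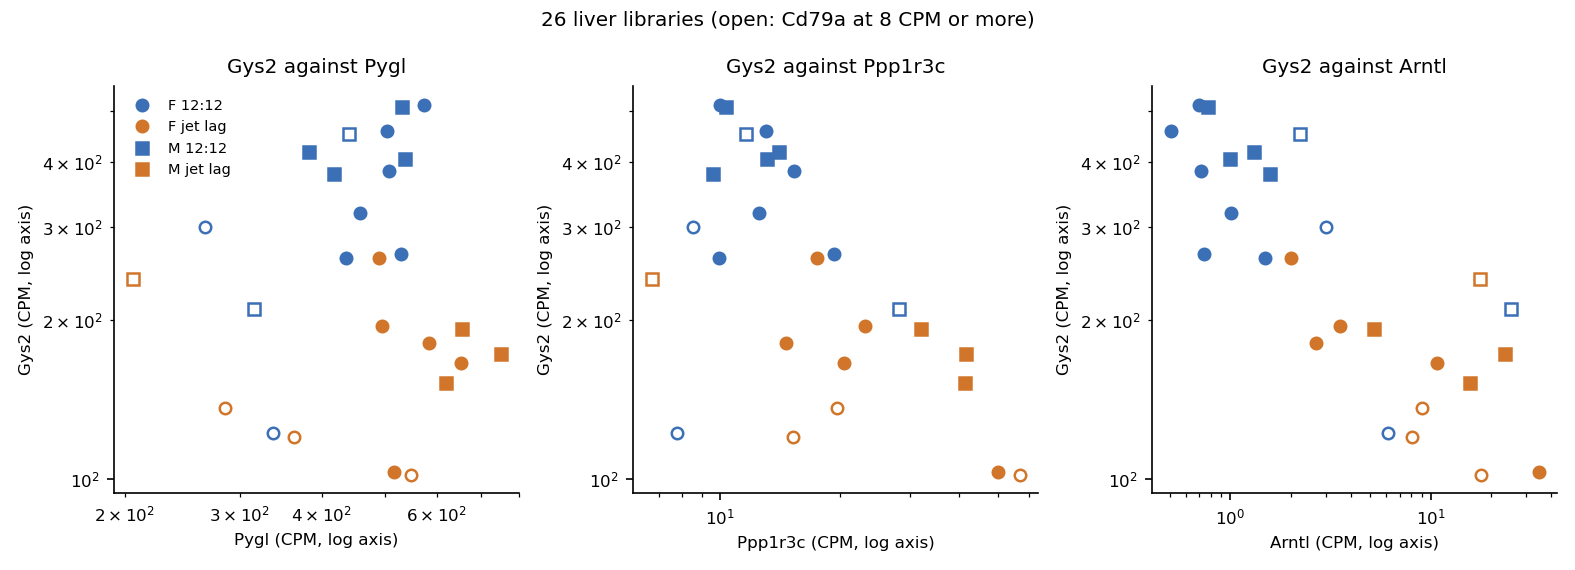
CPM of Gys2 (y axis, log) against CPM of Pygl, Ppp1r3c and the clock gene Arntl (x axes, log) in the 26 libraries, with females as circles and males as squares, 12:12 in blue, jet lag in orange, and Cd79a-high libraries as open symbols. The jet lag libraries had a median Gys2 to Pygl ratio of 0.302 against 0.826 under 12:12, with overlap, and male jet lag library 8, at the lowest Pygl, had the highest ratio of all.

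The members were also set against Cd79a, with each Cd79a-high library compared with the median of the other libraries of its own group. By the median of these differences, 8 of the 8 members were lower in the Cd79a-high libraries. Over all genes tested 53.4% were lower. Of the members 4 were lower by at least 0.5 on the log2 scale (Gbe1, Pygl, Gys2 and Ugp2), as were 11.2% of all genes, and 0 of the members but 17.7% of all genes were higher by that much. The libraries were divided by a measured gene, so these are descriptions with no test.

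Gbe1 differed the most. It had medians of 72.6 CPM in the 8 Cd79a-high libraries and 121 CPM in the other 18, was lower than its own group in 8 of 8, and had a median log2 difference of -0.87. The differences ran from -0.18 in female jet lag library 2, which had the least Cd79a of the 8, to -1.69 in female 12:12 library 6.

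Pygl had medians of 326 and 523 CPM, was lower in 7 of 8, and had a median log2 difference of -0.74. In male jet lag library 8, which had the most Cd79a at 144 CPM, the log2 difference was -2.03. Gys2 had medians of 173 and 265 CPM, with a median log2 difference of -0.61, and was lower in 7 of 8. Male jet lag library 8 was the exception, at 0.22. The enzyme gene Ugp2 had medians of 268 and 347 CPM, was lower in 8 of 8, and had a median log2 difference of -0.52.

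The phosphatase-targeting and kinase subunits differed less on average and more in both directions. Median log2 differences were -0.36 for Ppp1r3g, -0.32 for Ppp1r3c, -0.23 for Ppp1r3b and -0.19 for Phka2. Ppp1r3b and Ppp1r3g were each above their own group in 3 of 8 libraries, and Ppp1r3c and Phka2 in 2. Without regard to group, Ppp1r3b had medians of 38.8 CPM in the Cd79a-high libraries and 35.7 CPM in the others. For Ppp1r3c the single differences ran from -2.92 in male jet lag library 8 to 1.43 in female jet lag library 2, and for Ppp1r3g from -1.70 to 4.65 in female 12:12 library 7. In male jet lag library 8 Ppp1r3b was also at its lowest against its group, at -1.89.

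**Figure D4:**
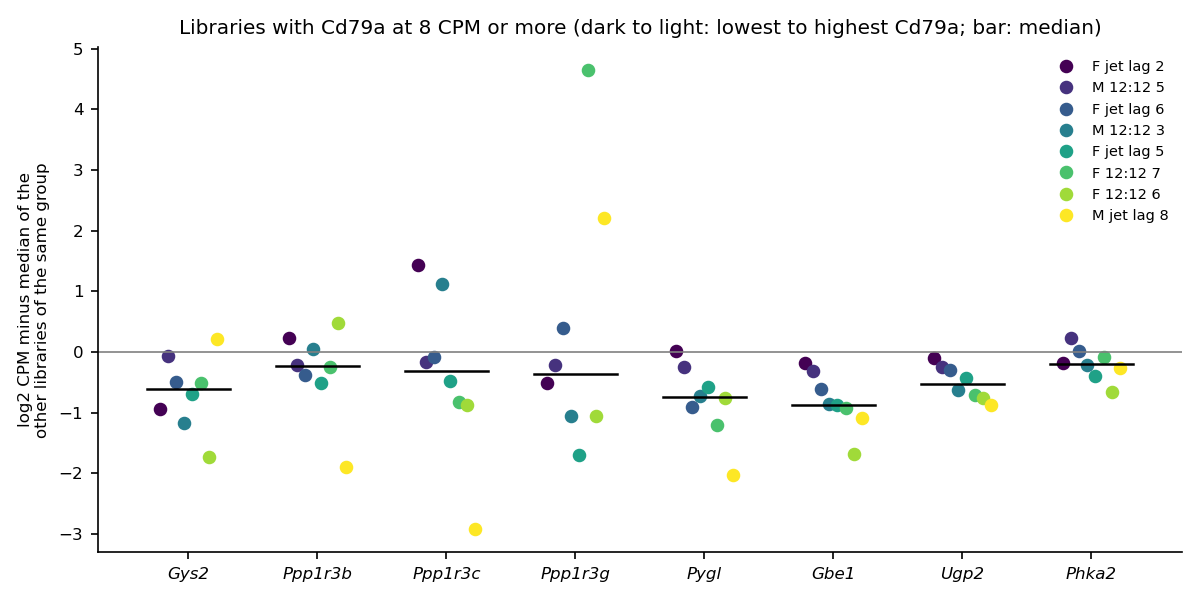
Log2 CPM of each of the 8 genes in each of the 8 Cd79a-high libraries, less the median of the other libraries of the same group (y axis), coloured from the lowest (dark) to the highest Cd79a (light), with a bar at the median. For Gbe1 and Ugp2 all 8 libraries lie below 0, and for Ppp1r3c and Ppp1r3g they spread to both sides.

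Markers of several other cell types moved with this division. The summed B-lineage markers (12 of 12 detected) include Cd79a, the gene that made the division, so part of their difference was fixed by it. They stood at 61.7 to 564 CPM in the Cd79a-high libraries and 11.5 to 26.2 CPM in the others. The macrophage markers stood at 421 to 2080 against 217 to 475 CPM, and the neutrophil markers at 7.03 to 461 against 1.26 to 7.58 CPM. The adipocyte markers stood at 10.9 to 25.8 against 6.31 to 10.3 CPM, with Lep at 0 in all libraries. The summed hepatocyte markers were not lower there, with 176379 to 254969 CPM against 143760 to 188730 CPM, though 7 of 10 markers were lower against their own group, by a median log2 difference of -0.26 and none by 0.5. Fewer cells of a type and less RNA per cell cannot be told apart in bulk tissue, and the part of these cells in the levels of the members was not tested. Of the 22 other glycogen genes 14 were lower in the Cd79a-high libraries, with a median log2 difference of -0.08. By at least 0.5, 2 of them were lower and 2 higher. Over all genes tested 53.4% were lower, and by at least 0.5, 11.2% were lower and 17.7% higher.

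The clock gene Arntl, which encodes BMAL1, was highest, under 12:12, in the library of each sex with the lowest Gys2. Under jet lag this held in neither sex. Arntl peaked in female jet lag library 3 (34.5 CPM), but Gys2 was lowest in library 2, at 102 CPM against 103 in library 3. Among the jet lag males Arntl peaked in library 6 (23.5 CPM), but Gys2 was lowest in library 7, at 152 CPM against 172 in library 6. Arntl was among the 3 genes most negatively correlated with Gys2 in these same libraries, as given below. Its levels here are therefore not separate from that correlation. Arntl stood between 0.504 and 1.58 CPM in the 12:12 libraries that were not Cd79a-high, and at 6.09 and 3.00 CPM in female 12:12 libraries 6 and 7 and 25.3 and 2.23 CPM in male 12:12 libraries 3 and 5. Male 12:12 library 3 was the one with the highest Ppp1r3c and the lowest Gys2 of its group. The lowest Arntl under jet lag was 2.02 CPM, in female library 8, which was not Cd79a-high. Every jet lag library thus lay above the 12:12 libraries that were not Cd79a-high. The part of the clock in these values was not tested.

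Genes whose levels varied most like those of Gys2 and Ppp1r3c were sought among 12675 genes, by Pearson's r of log2 CPM after the mean of each group was taken off, over all 26 libraries. The libraries share depth, scaling and the Cd79a division, so r is also given for the 18 libraries that were not Cd79a-high. For Gys2 the most positive were Lrp4 (r = 0.88, and 0.70 in the 18), Irf2 (0.88 and 0.91) and 1700001L05Rik (0.86 and 0.76). The most negative were Steap3 (-0.87 and -0.69), Sumo3 (-0.85 and -0.65) and Arntl (-0.84 and -0.74). For Ppp1r3c the most positive were Tjp3 (0.89 and 0.69), Pxdc1 (0.86 and 0.58) and Ap2a2 (0.85 and 0.52), and the most negative Ubap2 (-0.79 and -0.66), Vps39 (-0.78 and -0.55) and Abcf1 (-0.78 and -0.55). By edgeR, Lrp4 itself changed by -0.98 under jet lag (adjusted p = 0.0105) and Tjp3 by 1.22 (adjusted p = 0.0306), while Arntl was at 2.29 (adjusted p = 0.0636). The rest of these correlated genes were not called by edgeR, with adjusted p-values from 0.100 for Sumo3 upwards. Irf2 was at 0.03 (adjusted p = 0.999 from edgeR).

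Among the members themselves, the 28 pairs ranged from r = -0.38 for Ppp1r3b and Ppp1r3g to 0.82 for Pygl and Gbe1 by the same measure. After Pygl and Gbe1, the highest values over all libraries were 0.77 for Gbe1 and Ugp2, 0.73 for Gys2 and Gbe1, 0.68 for Gys2 and Phka2 and for Ugp2 and Phka2, 0.67 for Gys2 and Ugp2 and 0.66 for Pygl and Ugp2. In the 18 libraries these were 0.34, 0.65, 0.26, 0.59, 0.59 and -0.03 in the same order, and Pygl and Gbe1 stood at 0.46. The value farthest from 0 in the 18 was -0.85, for Ppp1r3b and Phka2, which had -0.37 over all libraries. Gys2 and Ppp1r3c, which changed in opposite directions with lighting, had r = -0.19 over all libraries and -0.55 in the 18.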

How the data were processed

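Liver RNA of 26 mice was measured in stranded mRNA libraries, per the labels' protocols. Expected counts per gene name and library were deposited without normalization by the authors, with 0 written as 0.015 in 45.8% of cells and 1.44% of cells not whole (tolerance 1e-06). Counts were rounded and names that stood on several lines summed. The submitters' processing notes name STAR, DESeq2 and mm10, but the sources used here name no counting tool or strand setting. Besides, the authors deposited a DESeq2 table with a log2 fold change and p-values per gene, used only where it is named.

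Genes were kept by filterByExpr by group (count minimum 10), scaled by TMM and tested with edgeR 4.0.16 by quasi-likelihood F tests (glmQLFit, robust) in R 4.3.3. The effects of lighting over both sexes and of sex were fitted together as 2 additive terms, and the other comparisons as contrasts of the 4 group means, always with all 26 libraries. Benjamini-Hochberg adjustment ran over 16892 genes, with a threshold of 0.05. Within groups no library was a copy of another, as chi-square divided by its degrees of freedom was at least 29.0. Libraries of different groups were not compared in this way. Other settings were DESeq2 1.42.0, limma-voom (limma 3.58.1), other scalings, no filter, Cd79a as a covariate, a replicate block and leaving out libraries. On data simulated from these libraries, for lighting over both sexes and 16655 genes, the test recovered 50.75%, 88.06% and 96.97% of genes changed 1.5, 2 and 4 times. Of its calls 5.42% were false. The simulated counts held no sex effect and no Cd79a division, and the changed genes had a mean of at least 1 CPM. These shares may therefore not hold for the real libraries. Intervals and floors cover counting error only where they come from counts of 1 library.

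Every member was named for lighting over both sexes and for sex, and those without values of their own in the other comparisons are covered by ranges. From the lists of other glycogen genes and of glucose and glucose 6-phosphate genes, the 4 with the smallest p over both sexes and every gene past the threshold were named, and for each member that changed the 3 most positively and 3 most negatively correlated genes (mean of at least 1 CPM). Some genes that this rule names are not reported here. Gene positions and exon lengths are from GENCODE M21 on GRCm38. The members, lists and tests were chosen with earlier results of these data known.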

Additional observations from a re-analysis of the deposited data

Results flagged for a closer look

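In 5 of 32 groups of 4 to 8 libraries, 1 library lay apart from the rest of its group for a member, by the ratio of its gap to the group's range (Dixon's criterion). For independent groups of normally distributed values the criterion marks about 1 in 20. The levels of Ppp1r3g were skewed and the 8 members share their libraries, so the number marked cannot be compared with that rate. Ppp1r3g accounted for 3 of the 5 groups marked. It stood at 17.8 CPM in female 12:12 library 7, where the others held 0.0808 to 1.498, at 5.72 CPM in female jet lag library 1, where the others held 0.121 to 0.796, and at 1.82 CPM in male jet lag library 8, where the others held 0.0812 to 0.335. The other 2 came from the same mouse, male 12:12 library 3. There Ppp1r3c stood at 28.2 CPM, above the 9.58 to 14.0 CPM of its group, and Gbe1 at 85.3 CPM, below the 123 to 140.4 CPM of its group. That library and 2 of the 3 with high Ppp1r3g were Cd79a-high.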

How the results depend on the processing

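Gys2 over both sexes stayed past the threshold in all 8 other settings, with an adjusted p of 1.29e-05 to 0.0087, and in all 26 fits that left out 1 library. Ppp1r3c stayed past it in 6 of 8 settings and fell short with limma-voom (0.96, adjusted p = 0.153) and with no filter on low counts (adjusted p = 0.0829). Of 1172 refits of single genes, 1067 kept their direction and side of the threshold, 20 lost a call, 13 gained one and 72 changed sign, all of the last among changes that were not called. The cause of these changes was not tested.

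The count of genes called moved more. Over both sexes it was 132, 274 with DESeq2, 280 with Cd79a as a covariate and 381 without the Cd79a-high libraries, and with 1 library left out from 70 (female jet lag 3) to 244 (male jet lag 8). In females it was 0, 55 with DESeq2, 7 with library totals, 28 with the covariate, 13 without the Cd79a-high libraries and 14 in female libraries alone, and 0 to 13 with 1 library left out. In males it was 2, 94 with DESeq2, 0 with size factors, library totals or male libraries alone, 61 with the covariate, 219 without the Cd79a-high libraries, and 0 to 106 with 1 library left out. Between the sexes it was 1542, 2532 with the covariate and 3188 without the Cd79a-high libraries. Scaling by library totals moved the median of all genes between the sexes to 0.12 and the split from 789 higher and 753 lower to 1704 and 349, and Phka2 then passed (0.28, adjusted p = 0.0277).

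Changes of sign were these. Over both sexes Ppp1r3g was at 0.77 with DESeq2 and 0.55 without the Cd79a-high libraries (-1.30 to 0.74 with 1 library left out), and Ppp1r3b at 0.078 without the Cd79a-high libraries. In females Ppp1r3b was at 0.00056 with DESeq2, 0.041 with limma-voom, 0.00050 with size factors, 0.011 with library totals and 0.15 without the Cd79a-high libraries (-0.11 to 0.076), Ppp1r3g at 1.14 without the Cd79a-high libraries (-2.60 to 0.79), and Pygl ran from -0.015 to 0.16. In males Phka2 was at -0.0021 with no filter and -0.017 in male libraries alone (-0.047 to 0.061), Ppp1r3g at -0.77 without the Cd79a-high libraries (-0.57 to 0.98), Gbe1 ran from -0.37 to 0.063 and Ugp2 from -0.28 to 0.018. For the difference between the sexes Gys2 was at 0.0072 with DESeq2 or size factors, 0.0065 with library totals, 0.015 with no filter and 0.25 without the Cd79a-high libraries (-0.16 to 0.13), and Ppp1r3c at 0.15 with limma-voom, 0.10 with library totals and 0.19 with the covariate (-0.39 to 0.22).

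Female and male libraries share animal numbers across lightings, but libraries of the same number did not vary together, with correlations of -0.38 to 0.60 over 10 pairs, and 1 of 8 female 12:12 libraries correlated best with its own number. With the number as a replicate block Gys2 was at -1.12 (adjusted p = 0.0087) and Ppp1r3c at 1.17 (adjusted p = 0.0163). The block called 19 genes in females, 4 in males and 957 between the sexes. It changed the sign of Ppp1r3b to 0.14 over both sexes, 0.035 in females and 0.84 in males, of Phka2 (-0.20), Ppp1r3g (-1.47) and Gbe1 (0.070) in males, and of Gys2 in the difference between the sexes (0.30).

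The males under jet lag were 4, so intervals in males are wide. Ppp1r3g rested on 4 to 837 counts per library, and its folds are imprecise. The sources used here give neither the hour of sampling nor the strand setting of the counts, so a shift of phase and a change of level cannot be told apart for genes that vary over the day, and reads of genes on opposite strands cannot be separated.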
